A study of Mus musculus with 5 samples.

Results

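The genes of MHC class II antigen presentation were followed across live CD45+ (immune) cells that had been sorted out of digested thyroid glands. The mice were NOD, a strain prone to autoimmunity. The set was named gene by gene and holds 10 of the 18767 genes in the deposited count table: H2-Aa, H2-Ab1, H2-Eb1, Cd74, H2-DMa, H2-DMb1, H2-DMb2, H2-Oa, H2-Ob and Ciita. All 10 were found in the table. The treated group (ICI, immune checkpoint inhibition) received anti-PD-1 (clone RPM1-14) together with anti-CTLA-4 (clone 9D9) at 10 mg/kg per dose by intraperitoneal injection over 4 weeks, and the control group received isotype antibodies (clones 2A3 and MPC11) on the same schedule. All mice were NOD wild type, of both sexes, and 4 to 6 weeks old at the start. The ICI group of 16 mice gave 4 libraries and the isotype group of 10 mice gave 1 library. The labels do not give the number of mice in each library, so the spread between ICI libraries may be partly technical, and the isotype library has no replicate.

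Class II molecules display peptides taken up from outside the cell to CD4 T cells. H2-Aa and H2-Ab1 encode the alpha and beta chains of the I-A molecule, and H2-Eb1 encodes the beta chain of I-E. H2-Ea was not in the count table, so of the I-E chains only the beta chain was followed. These counts cannot show whether a complete I-E molecule was made. Cd74, the invariant chain, blocks the peptide groove until it is degraded in endosomes, after which H2-DM (H2-DMa with H2-DMb1 or H2-DMb2) exchanges its last fragment for peptide. H2-DO (H2-Oa with H2-Ob) restrains H2-DM and is best known from B cells. Ciita is the transactivator of the pathway. It binds no DNA itself and is held at class II promoters by RFX factors on the X box and by NF-Y on the Y box. Macrophages, dendritic cells and B cells are the cells known for this program.

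The promoter stretches of the members are shown because the X and Y boxes of class II genes are known from this stretch. RefSeq promoter windows (build GRCm38.p6, 250 bases before to 50 bases after the gene start) were searched for 7 of the 10 members. Cd74 was left out of the search, and no window was at hand for H2-Ab1 and Ciita, so the counts cover none of them. The letters searched, on both strands, were TGATTGG (Y box) and AAC followed, after any 3 bases, by TGATG (X box). They were chosen after the windows were read, so the counts are a description. The Y box letters were present in 6 of the 7 genes, against 7.80% of 32817 windows of the same length. The X box letters were present in 4 of the 7, against 0.616% of windows, and both motifs stood together in the same 4 genes, against 0.0518% of windows. The 2 motifs do not overlap in these stretches. Capitals mark the Y box and, where it was found, the X box before it. The stretches run 5′ to 3′ on the gene's strand, and those of H2-DMb2 and H2-DMb1 can be read against each other.
H2-Eb1: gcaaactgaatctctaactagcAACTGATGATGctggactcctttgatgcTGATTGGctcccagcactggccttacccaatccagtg
H2-Ob: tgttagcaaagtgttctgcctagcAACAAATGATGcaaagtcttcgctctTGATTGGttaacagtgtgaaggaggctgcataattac
H2-DMb1: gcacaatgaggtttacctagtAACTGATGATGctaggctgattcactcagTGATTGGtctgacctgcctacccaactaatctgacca
H2-DMb2: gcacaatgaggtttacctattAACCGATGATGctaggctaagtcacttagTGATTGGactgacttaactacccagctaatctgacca
H2-Aa: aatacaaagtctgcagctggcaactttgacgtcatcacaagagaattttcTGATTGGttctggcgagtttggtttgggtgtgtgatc
H2-Oa: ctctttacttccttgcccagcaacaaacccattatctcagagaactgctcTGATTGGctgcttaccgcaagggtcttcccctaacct

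These stretches lie at chr17:34305756-34305842 (H2-Eb1), chr17:34238796-34238882 (H2-Ob), chr17:34153078-34153164 (H2-DMb1), chr17:34145107-34145193 (H2-DMb2), chr17:34287837-34287923 (H2-Aa, minus strand) and chr17:34092284-34092370 (H2-Oa). The other 5 genes lie on the plus strand. Between the X box and the Y box lay 17 bases in H2-Eb1, 15 in H2-Ob, 18 in H2-DMb1 and 18 in H2-DMb2. The 2 windows of H2-DMa held neither set of letters. All of these genes and H2-Ab1 lie in the class II region of chromosome 17, and Ciita lies on chromosome 16 and Cd74 on chromosome 18.

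The libraries differed in depth and make-up. ICI 1 to 4 held 1523, 1219, 1163 and 5018 cells and the isotype library 1352, where the labels state 1688, 1234, 1178, 5018 and 1352. Their depth ran from 3858251 to 32296759 UMIs (unique molecular identifiers, counted transcripts) in the ICI libraries, deepest in ICI 4, and was 8130081 in isotype. Transcripts of the globin gene Hbb-bs were counted only in ICI 4 (26385 UMIs) and isotype (3218 UMIs). ICI 2 and ICI 3 shared 140 cell barcodes, of which 109 fell in the same cluster and 74 in cluster 7 of both libraries. No other pair of libraries shared more than 12, and in those pairs none fell in the same cluster.

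Class II transcripts were concentrated in 3 of the authors' 17 clusters. Cluster 7 was macrophage-like, with 12 of 12 macrophage or monocyte markers at 1.5-fold or more over other cells and C1qa, C1qb and C1qc in the lead. Cluster 14 was B-like, with 8 of 8 B cell markers and Cd79a and Ms4a1 among its leading genes. Cluster 16 was conventional dendritic-like, with 9 of 12 markers, Wdfy4 and Xcr1 among them. These clusters held 873 of 10275 cells (8.50%) and 96.1% of the 404573 class II UMIs. The clusters were made from the genes of the same cells, so all differences between clusters are descriptions.

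By cluster, the summed class II level was highest in dendritic-like cluster 16, at 68778 CPM (UMIs per 1000000 UMIs of the same cells). Macrophage-like cluster 7 had 64162 CPM, and B-like cluster 14 had 44891 CPM. In the libraries with at least 10 cells of each cluster, cluster 16 had 82818 CPM in ICI 1, 66741 in ICI 4 and 66854 in isotype. Cluster 7 had 71554, 92799, 96929 and 43310 CPM in ICI 1 to 4 and 40926 in isotype. Cluster 14 had 36380 CPM in ICI 1, 46321 in ICI 4 and 44626 in isotype. Cluster 16 was thus the highest of the 3 in each of ICI 1, ICI 4 and isotype, while clusters 7 and 14 changed places between libraries. Pooled over libraries, the order of clusters 16 and 7 turned once cells with at least 2 UMIs of Cd3 genes, which mark T cells, were removed. Cluster 16 then had 77585 CPM and cluster 7 had 86891 CPM over all cells left. By library, cluster 7 then had 52632 CPM in isotype and 51792 CPM in the lowest ICI library, ICI 4. Both lie below every library value of cluster 16 given above, which are from before the removal. ICI 2 and ICI 3, high in cluster 7, had only 5 and 4 cells in cluster 16. Cluster 15 followed at 4361 CPM and could not be named: it carried 6 of 6 plasmacytoid dendritic markers at 1.5-fold or more, but none of these led it, and Slpi and Mzb1 did. The other 13 clusters lay at 546 CPM (cluster 13) or lower over all their cells.

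**Figure D1:**
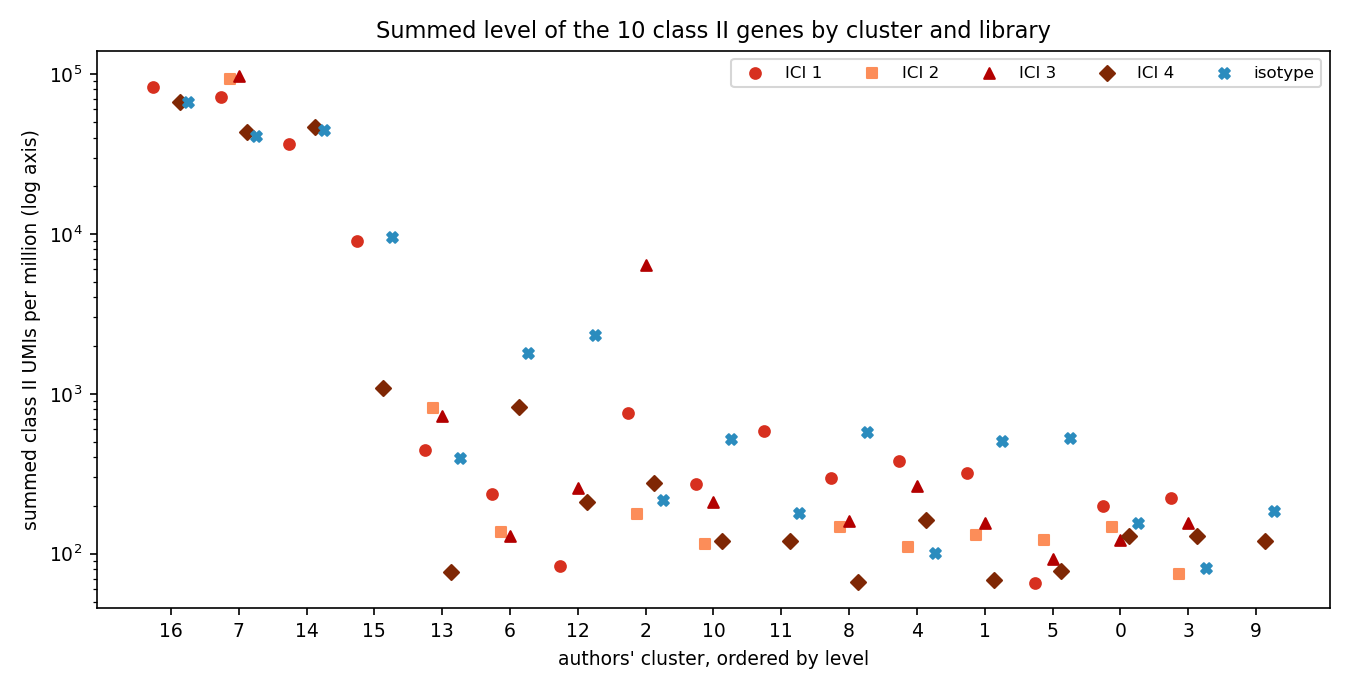
Summed CPM of the 10 class II genes (log axis) in each of the authors' clusters, one point per library with at least 10 cells of the cluster. Clusters 16, 7 and 14 lie at 36380 or higher in every library shown, and in cluster 12 isotype lies above all ICI libraries shown.

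Most of the signal came from few cells. The top 1% of cells (103 cells) held 38.1% of all class II UMIs, the top 5% (514 cells) held 90.1% and the top 10% held 98.9%. Of the 103 highest cells, 61 lay in cluster 7 and 42 in cluster 16. Within libraries, the top 1% of cells held 38.1%, 23.7%, 29.9% and 67.6% of the signal in ICI 1 to 4 and 20.7% in the isotype library. ICI 4, with the most cells and the smallest share of class II UMIs (0.327% of its UMIs, against 1.255%, 1.83% and 1.67% in ICI 1 to 3 and 1.22% in isotype), was the most concentrated.

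The I-A and I-E chains and the invariant chain followed much the same pattern over clusters, except in the order of clusters 7 and 16. In ICI 1 Cd74 was highest in cluster 7, and in ICI 4 and isotype in cluster 16. Pooled over libraries Cd74 had 34997 CPM in cluster 7 and 29481 in cluster 16. H2-Aa, H2-Ab1, H2-Eb1 and Cd74 had 97.2%, 97.1%, 97.1% and 96.2% of their UMIs in clusters 7, 14 and 16. Over the 17 clusters, the level of each (log2 of CPM plus 10) correlated with that of the other 9 members summed at Pearson r = 0.987 to 0.992, a description over 17 points that share libraries. H2-Aa, H2-Ab1 and H2-Eb1 were highest in dendritic-like cluster 16 in each of ICI 1, ICI 4 and isotype. H2-Ab1, for example, had 10217 and 11928 CPM there in ICI 1 and ICI 4 and 10271 in isotype, against 2360, 4787 and 4364 CPM in the B-like cluster of the same libraries.

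The loading factors split. H2-DMa had 70.2% of its UMIs in the 3 clusters and H2-DMb1 and H2-DMb2 had 96.1% and 92.6%. H2-DMb2 was highest in the B-like cluster, at 1301 CPM in ICI 1, 1630 in ICI 4 and 1254 in isotype, above clusters 7 and 16 in each of these libraries. H2-DMb1 was highest in the dendritic-like cluster in the same 3 libraries. H2-DMa on chromosome 17 overlaps Brd2 on the other strand, and Brd2 had 118 to 255 CPM in every cluster. The strand used in counting is not stated in the sources used here, so UMIs of the pair may be mixed.

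H2-DO was least tied to the other members. H2-Ob, the beta chain, was highest in the B-like cluster, with 312 CPM in ICI 1, 331 in ICI 4 and 251 in isotype, against 24.5, 21.8 and 6.92 CPM in the macrophage-like cluster. H2-Oa, the alpha chain, had 36.3% of its UMIs in clusters 7, 14 and 16 and the weakest correlation with the other members over clusters (r = 0.634, with 0.779 for H2-Ob and 0.922 for Ciita). In type 2 innate lymphoid-like cluster 10 H2-Oa had 54.2, 28.8, 42.2 and 63.9 CPM in ICI 1 to 4 and 53.9 in isotype. That range overlapped that of the macrophage-like cluster (50.9, 57.5, 66.7 and 39.7 CPM in ICI 1 to 4 and 11.3 in isotype). The ratio of H2-Oa to Cd74 differed between these clusters and the rest: H2-Oa had 99.5 UMIs for every 1000 Cd74 UMIs outside clusters 7, 14 and 16, against 2.25 inside. This held in every library, with 30.8, 30.8, 57.9 and 292 outside in ICI 1 to 4 and 32.8 in isotype, against 1.30 to 5.05 inside in ICI 1 to 4 and 1.19 in isotype. H2-DMa likewise had 152 per 1000 Cd74 UMIs outside and 14.2 inside, whereas H2-Aa had 290 outside and 395 inside. These are sums, and single clusters overlapped. H2-Oa had 12.3 per 1000 Cd74 UMIs in B-like cluster 14 and 10.7 in cluster 15, which lies outside. H2-Oa overlaps BC051537 on the other strand, which had 14 UMIs in all cells.

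**Figure D2:**
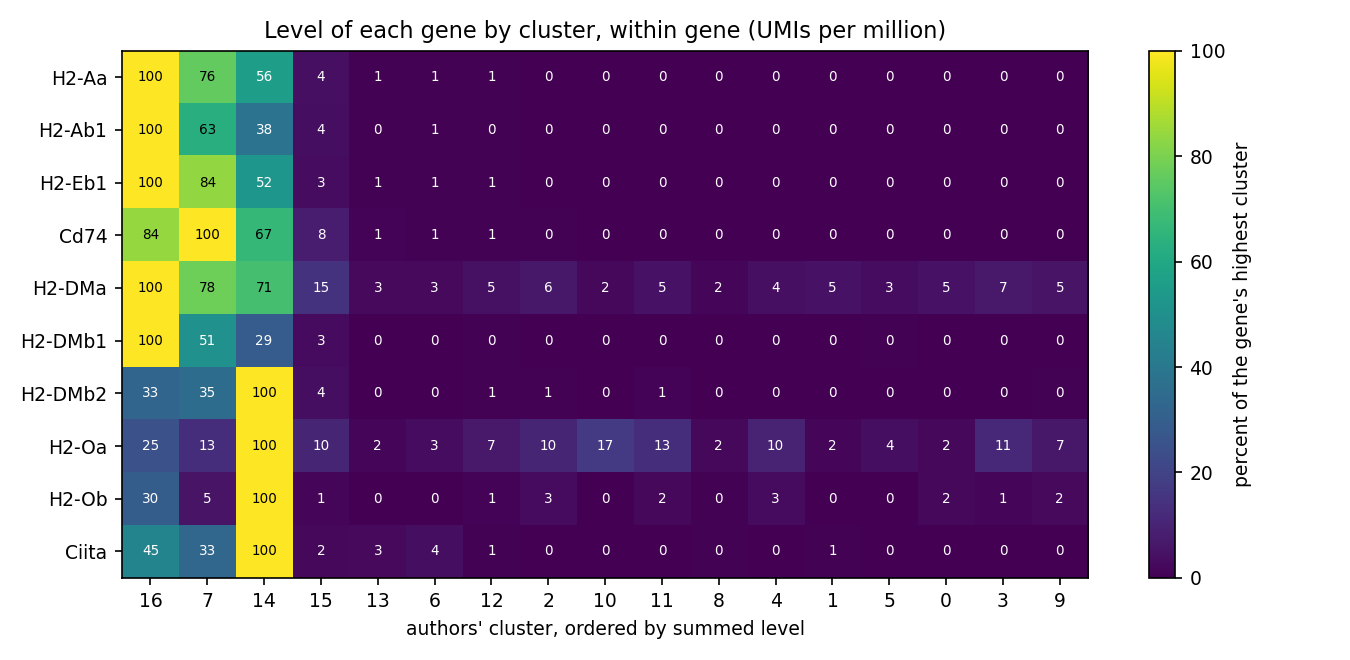
Level of each class II gene (CPM over all cells of a cluster) as a percent of that gene's highest cluster. H2-DMb2, H2-Oa, H2-Ob and Ciita peak in B-like cluster 14. The H2-DMa and H2-Oa rows, rounded to whole percents, stay above 0 in every cluster.

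Ciita itself was sparse, with 566 UMIs in all and 91.9% of them in clusters 7, 14 and 16. It was highest in the B-like cluster, at 343 CPM in ICI 1, 158 in ICI 4 and 150 in isotype. The dendritic-like cluster had 269, 65.7 and 76.1 CPM in these libraries. Ciita had no UMI in the 377 cells of cluster 10, where H2-Oa had 68. A count of 0 there allows a level of up to 2.19 CPM (3 UMIs), for counting error only.

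Among genes outside the set, Unc93b1 (r = 0.958), Ly86 (r = 0.954) and Themis2 (r = 0.949) were among those whose cluster pattern was most like the summed members. So were Csf2rb (r = 0.948), Pkib (r = 0.944), Fgd2 (r = 0.941), Ctsh and Rassf4 (r = 0.940 each). Likeness was Pearson's r over 17 clusters among 8894 genes with at least 500 UMIs. Each gene named here had its highest level outside clusters 7, 14 and 16 in cluster 15.

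Class II-high cells, those with at least 1% of their UMIs from the 10 genes, numbered 799, and 759 of them lay in clusters 7, 14 and 16. The cut divides a range, and 39 cells lay between 0.8% and the same ratio above the cut. They made up 9.46%, 15.01%, 14.02% and 3.13% of cells in ICI 1 to 4 and 11.2% of isotype cells (exact 95% interval 9.61% to 13.05%, counting error only). The ICI mean of 10.4% ± 5.42 (SD, n = 4) differed from isotype by -0.84 percentage points, with 2 of 4 libraries above and an exact two-sided permutation p of 1, where 0.2 is the smallest the design allows. ICI 2 and ICI 3 share barcodes and may not be independent. With the shared barcodes reduced to 1 copy the ICI mean was 9.17% ± 4.28 (SD, n = 4), 1 of 4 libraries lay above isotype, and the difference was -2.07 points (exact permutation p = 0.6). Of 40 class II-high cells outside the 3 clusters, 17 lay in cluster 15, and 17 held at least 2 UMIs each of Cd3 genes and of B or myeloid markers. Among cluster 7 cells, the class II-high numbered 75 of 104 in ICI 1, 168 of 181 in ICI 2, 143 of 162 in ICI 3, 35 of 45 in ICI 4 and 94 of 129 in isotype. The 106 cells of cluster 7 under the cut had S100a8 at 1114 CPM and S100a9 at 1610 CPM, against 0 and 0.30 CPM in the 515 cells at or over it. Both encode calgranulins, abundant in neutrophils and some monocytes.

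The study set thyroid immune cells of checkpoint-inhibited mice against those of isotype-treated mice, and the members were compared between ICI and isotype libraries in sums over cells. Over all cells no member passed the test: edgeR's quasi-likelihood test on UMIs summed per library called 0 of 12659 genes at an adjusted p under 0.05 (0% of genes tested). At an unadjusted p under 0.05 there were 516 genes (4.08%) and no member, and DESeq2 called 38 genes (0.300%) and no member. The members' edgeR adjusted p ran from 0.817 to 0.9996. On the fitted scale 2 of 10 lay below isotype in every ICI library, where 22.5% of genes did so. Their median log2 fold change, ICI over isotype, was -0.03, against 0.02 over all genes. Cd74 had 6760, 10525, 9433 and 1459 CPM in ICI 1 to 4 and 5978 in isotype, so 3 ICI libraries lay above isotype and ICI 4 below. In sums over all cells, fewer class II cells and less class II RNA per cell cannot be told apart.

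Within macrophage-like cluster 7, class II genes were on the whole higher in ICI, without passing the test. The cluster was mixed, with 5 of 5 neutrophil markers also at 1.5-fold or more. Class II-high cells made up 72.1%, 92.8%, 88.3% and 77.8% of it in ICI 1 to 4 and 72.9% in isotype. In this sum, a change of make-up and more class II RNA per cell cannot be told apart. On the fitted scale 8 of 10 members lay above isotype in every ICI library, where 20% of the 8997 genes tested did so, and the members' median log2 fold change was 0.93, against 0.02 over all genes. edgeR called 0 of 8997 genes at an adjusted p under 0.05 (0% of genes tested). At an unadjusted p under 0.05 there were 766 (8.51%), with 3 of the 10 members among them (Ciita, H2-Oa and H2-Ob). DESeq2 called 32 genes (0.356%), of which 1 was a member. With the barcodes shared by ICI 2 and ICI 3 reduced to the copy with more UMIs, the same count of 8 lay above isotype, the median was 0.93, and Ciita and H2-Oa had log2 fold changes of 2.15 and 2.20.

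Ciita, the transactivator, showed the clearest separation in cluster 7. It had 96.2, 98.2, 93.7 and 81.4 CPM in ICI 1 to 4, against 20.8 CPM in isotype, where it rested on 33 UMIs. All 4 ICI libraries were close together and well above isotype (log2 fold change 2.15, SE 0.34, edgeR adjusted p = 0.335). DESeq2 gave an adjusted p of 0.00168, and edgeR without ICI 4 gave 0.0148. ICI 4 is the only ICI library that shared Hbb-bs transcripts with isotype, so without it treatment and that split of the libraries cannot be told apart. H2-Oa, which restrains peptide exchange, had 50.9, 57.5, 66.7 and 39.7 CPM in ICI 1 to 4, against 11.3 CPM in isotype (18 UMIs). Here too the groups did not overlap (log2 fold change 2.24, SE 0.44, adjusted p = 0.414, and 0.0213 without ICI 4). H2-Ob, its partner, had 24.5, 19.6, 21.3 and 21.8 CPM in ICI 1 to 4, against 6.92 CPM in isotype (11 UMIs; log2 fold change 1.63, SE 0.46, adjusted p = 0.503). H2-DM UMIs outnumbered H2-DO UMIs by 19.7, 18.8, 18.4 and 15.7 times in ICI 1 to 4 and by 53.8 times in isotype.

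The measured I-A and I-E chains and the invariant chain differed less, and ICI 4 lay near isotype. Cd74 had 39516, 53666, 55130 and 20689 CPM in cluster 7 of ICI 1 to 4, against 20721 CPM in isotype (log2 fold change 1.03, SE 0.54, adjusted p = 0.618). ICI 4 and isotype were nearly equal, and the other 3 libraries were higher. H2-Aa had 13331, 16594, 17957 and 8878 CPM in ICI 1 to 4, against 8473 in isotype (log2 fold change 0.75, SE 0.41). H2-Eb1 had 9623, 12168, 12744 and 6390 CPM in ICI, against 5334 in isotype (log2 fold change 0.94, SE 0.42). H2-Ab1 (0.56) and H2-DMa (0.43) had smaller log2 fold changes, both with every ICI library above isotype. With ICI 4 set alone against isotype the members' median was 0.19, and Ciita, H2-Oa and H2-Ob were at 1.88, 1.65 and 1.43. Without ICI 4, edgeR called 647 genes in cluster 7 (7.35%), with 3 members among them (Ciita, H2-Oa and Cd74).

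**Figure D3:**
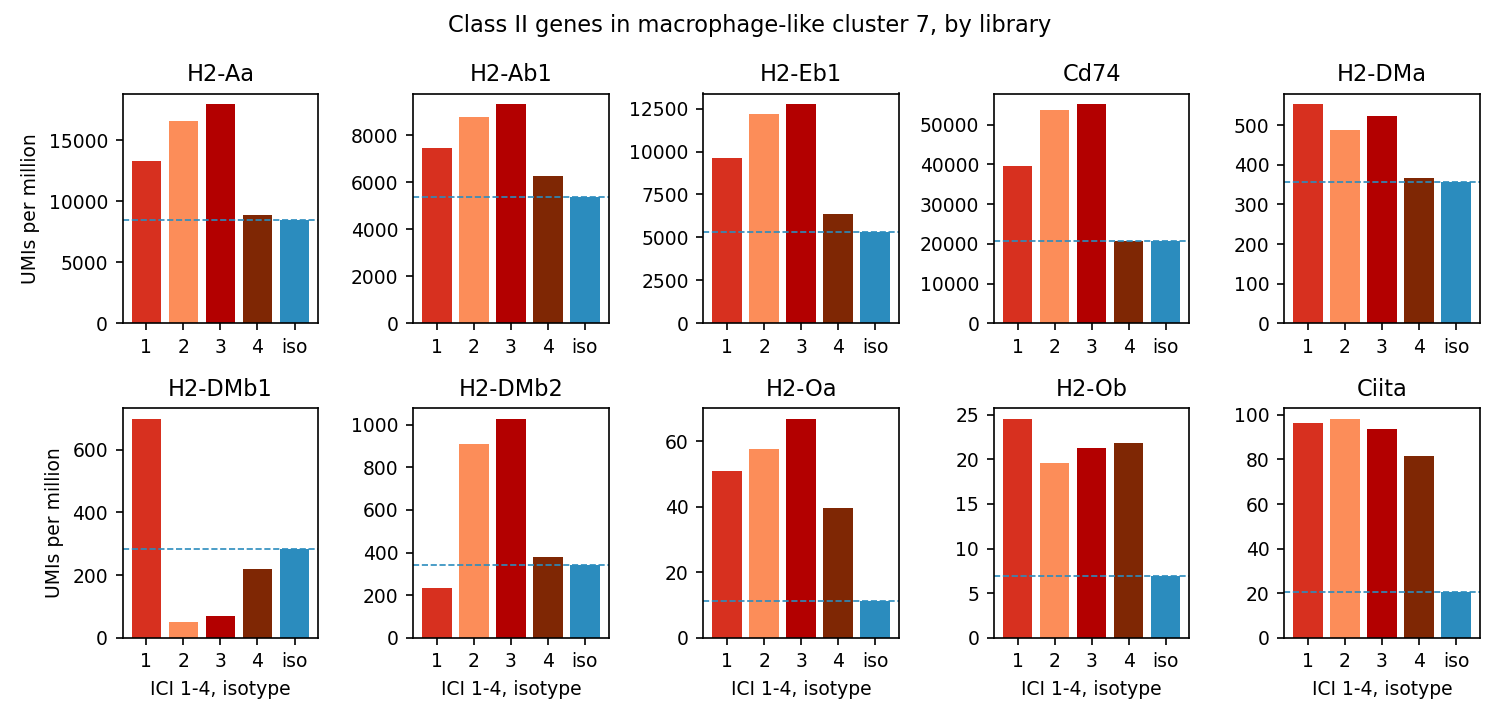
CPM of each class II gene in macrophage-like cluster 7, one bar per library with ICI 1 to 4 on the left and isotype on the right; the dashed line marks the isotype level and there are no error bars. For Ciita, H2-Oa and H2-Ob all 4 ICI bars stand well above isotype, while H2-DMb1 and H2-DMb2 vary among the ICI libraries.

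T cell transcripts in cluster 7 were lower in every ICI library than in isotype, and ICI 4 lay nearest to isotype. Cd3d, Cd3e and Cd3g, subunits of the T cell receptor complex, summed to 798, 108, 71.0 and 1113 CPM in ICI 1 to 4, against 1749 CPM in isotype. Cells with at least 2 such UMIs made up 16.3%, 3.87%, 3.09% and 51.1% of cluster 7 in ICI 1 to 4, against 72.1% (93 of 129 cells) in isotype. Median depth of cluster 7 cells was 3403, 3403, 3472 and 8726 UMIs in ICI 1 to 4, against 9932 in isotype. With these cells removed, 36 isotype cells were left. The members' median was then 0.45, and 4 of 10 lay above isotype in every ICI library, where 21.9% of genes tested did so. Ciita then had 114, 102, 93.7 and 117 CPM in ICI 1 to 4, against 11.3 CPM in isotype, which rests on 2 UMIs (exact 95% Poisson interval 1.37 to 40.8 CPM, counting error only). H2-Oa had 55.3, 59.9, 69.5 and 73.7 CPM in ICI, against 5.65 CPM in isotype from 1 UMI (0.143 to 31.5 CPM). Neither passed the test in these cells (edgeR adjusted p = 0.668 for each). H2-Ob had 29.1, 19.5, 22.7 and 36.9 CPM in ICI, against 22.6 CPM in isotype, so isotype lay within the range of the ICI libraries (log2 fold change 0.01, SE 0.76).

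The B-like and dendritic-like clusters gave no call among the members. Only ICI 1 and ICI 4 had at least 10 cells in either, against 16 B-like and 28 dendritic-like isotype cells. In B-like cluster 14 the members' median log2 fold change was -0.09, against 0.08 over all genes, and 3 of 10 lay above isotype in both ICI libraries, where 38.0% of genes did so; edgeR called 0 of 3223 genes (0%; 78, or 2.42%, had an unadjusted p under 0.05, none a member), and DESeq2 called 0. In dendritic-like cluster 16 the median was 0.11, against 0.01 over all genes, with 2 of 10 above isotype in both, where 29.8% of genes did so. There edgeR and DESeq2 each called 1 of 5713 genes (0.0175%), which was no member, and no member was among the 1.94% with an unadjusted p under 0.05. Ciita in cluster 16 had 269 and 65.7 CPM in ICI 1 and ICI 4, against 76.1 in isotype, and in cluster 14 it had 343 and 158 CPM, against 150 in isotype. The ICI libraries thus spread on both sides of isotype in cluster 16.

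Outside clusters 7, 14 and 16 most members were lower in ICI, without passing the test. The clusters summed here made up different parts of each library. Cluster 11, for example, held 21, 2, 1 and 155 cells in ICI 1 to 4 and 168 in isotype. In this sum, a change of make-up and less class II RNA per cell cannot be told apart. Below isotype in every ICI library were 6 of 10 (H2-Aa, H2-Ab1, H2-Eb1, Cd74, H2-DMb1 and H2-DMb2), where 25.9% of the 11938 genes tested were, and the median log2 fold change was -1.54, against 0.02 over all genes. edgeR called 1 gene (0.00838%), and it was no member. At an unadjusted p under 0.05 there were 534 genes (4.47%), with 5 members among them, and DESeq2 called 24 (0.201%) and no member. H2-Aa had 79.1, 61.3, 43.6 and 16.9 CPM in ICI 1 to 4, against 188 CPM in isotype (log2 fold change -2.01, SE 0.64, adjusted p = 0.727). Cd74 had 374, 198.7, 153 and 65.4 CPM in ICI, against 555 CPM in isotype (log2 fold change -1.59, SE 0.73, adjusted p = 0.727). H2-Oa had 11.5, 6.13, 8.83 and 19.1 CPM in ICI 1 to 4, against 18.2 CPM in isotype, lower in 3 of 4 libraries (log2 fold change -0.70, SE 0.64). Ciita went the other way, higher in 3 of 4, with 2.20, 2.58, 3.87 and 0.361 CPM in ICI, against 0.820 CPM in isotype from 5 UMIs (log2 fold change 1.30, SE 1.505). H2-Ob lay above isotype in ICI 1 and ICI 4 and below it in ICI 2 and ICI 3. Taken singly, the clusters went both ways. The median log2 fold change of the members that passed the filter was 2.89 in cluster 2 (5 members) and 2.05 in cluster 4 (2 members). It was -2.15 in cluster 1 (6 members), -3.02 in cluster 5 (5 members) and -3.91 in cluster 12 (6 members). Some of these medians turned or shrank. Without cells holding at least 2 B or myeloid marker UMIs, it was 2.04 in cluster 5 and 0.56 in cluster 2. With the highest cell left out it was 0.27 in cluster 1. In clusters 4 and 12 the sign held under each of these changes. In the sum outside clusters 7, 14 and 16 without ICI 4, edgeR called 249 genes (2.11%). H2-Eb1 was the only member among them (log2 fold change -1.54, SE 0.22, adjusted p = 0.0487).

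Macrophage and B cell markers moved with this difference as well. The 8 markers Lyz2, C1qa, C1qb, C1qc, Csf1r, Cd79a, Cd79b and Ms4a1 summed to 95.8, 34.8, 49.1 and 20.2 CPM in these cells of ICI 1 to 4, against 175 CPM in isotype. Of the 8, 6 were lower in all 4 ICI libraries, Cd79a in 3 and Cd79b in 1. Cells with at least 2 UMIs of these markers numbered 26, 13, 22 and 64 in ICI 1 to 4 and 34 of 1179 in isotype. They held 45.7%, 0.608%, 21.6% and 30.2% of the class II UMIs of these cells in ICI 1 to 4, against 76.2% in isotype. With them removed, Cd74 had a log2 fold change of -0.01 (SE 0.78) and H2-Aa one of -0.23 (SE 0.85). The members' median was then -0.23, and 1 of the 9 members tested lay below isotype in every ICI library, where 25.9% of genes did so.

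**Figure D4:**
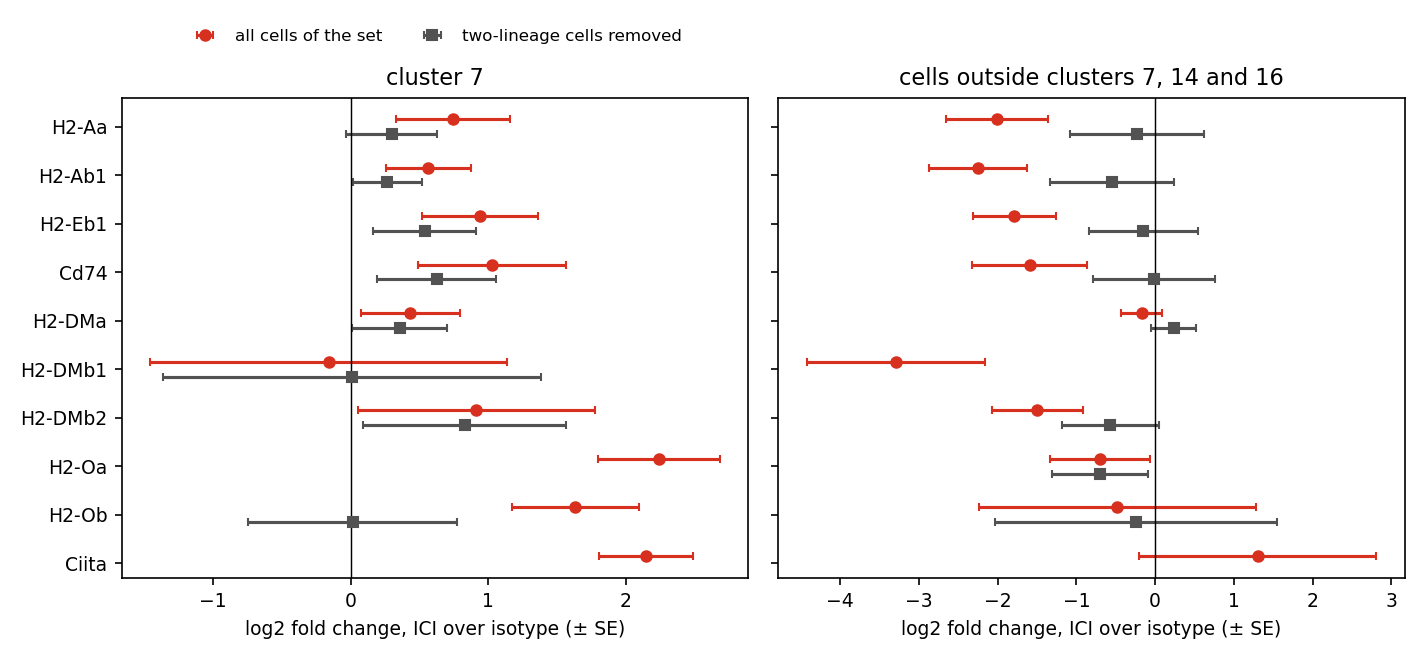
Log2 fold change of each class II gene, ICI over isotype, with its SE, in cluster 7 and in the cells outside clusters 7, 14 and 16, before and after cells with markers of another lineage are removed. Genes with 3 or fewer isotype UMIs after removal, or under the filter on low counts (H2-DMb1 outside the 3 clusters), are not drawn for it; outside the 3 clusters H2-Aa, H2-Ab1, H2-Eb1 and Cd74 lie from -2.25 to -1.59 before removal and from -0.55 to -0.01 after it.

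Among the other clusters taken one by one, a member was called once. In cluster 12, led by Nrgn, Tnfrsf9 and Tk1 and carrying 9 of 10 cycling markers, Cd74 had 51.3, 93.4 and 92.0 CPM in ICI 1, 3 and 4, against 1138 CPM in isotype. It fell by 3.86 on the log2 scale (SE 0.44, edgeR adjusted p = 0.0241), among 4 of 6355 genes called (0.0629%). A single cell held 47.0% of the 504 isotype UMIs. The adjusted p was 0.0875 once the top cell of every gene was dropped in each library, 0.342 without ICI 1, 0.167 without ICI 4, 0.55 after thinning and 0.999 with two-lineage cells removed (log2 fold change -2.35).

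The 2 H2-DMb genes, both beta chains of H2-DM, shared their UMIs out differently in each library. H2-DMb1 took 75.1% of their joint UMIs in cluster 7 of ICI 1, 5.25% in ICI 2, 6.23% in ICI 3 and 36.5% in ICI 4, against 45.5% in isotype (exact 95% interval 42.3% to 48.6%). The order was the same in cluster 16, with 79.6%, 8.82%, 2.78% and 47.9% in ICI 1 to 4 and 49.6% in isotype, except that ICI 2 and ICI 3 changed places. In the B-like cluster the share was low throughout, with 16.5%, 3.33%, 4.88% and 7.22% in ICI and 3.85% in isotype. The sum of the 2 genes was far steadier. In cluster 7 it was 929, 962, 1095 and 597 CPM in ICI 1 to 4, against 624 in isotype. In cluster 16 it was 1052, 1168, 952 and 1003 CPM in ICI 1 to 4, against 984 in isotype. The coding sequences, taken as the longest open reading frames, are 95.9% identical (754 of 786 bases) and 99.0% identical over the first 200 bases. Of all stretches of 90 bases in the H2-DMb1 transcript, 15.9% occur unchanged in H2-DMb2. Sequencing was from the 5′ end, so how reads were divided between the copies is uncertain and the separate counts carry that limit, as does any allele of NOD mice that differs from the reference. Joined into 1 gene, they had a log2 fold change of 0.52 (SE 0.41, adjusted p = 0.708) in cluster 7, where H2-DMb1 alone had -0.16 (SE 1.30) and H2-DMb2 alone 0.91 (SE 0.86).

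**Figure D5:**
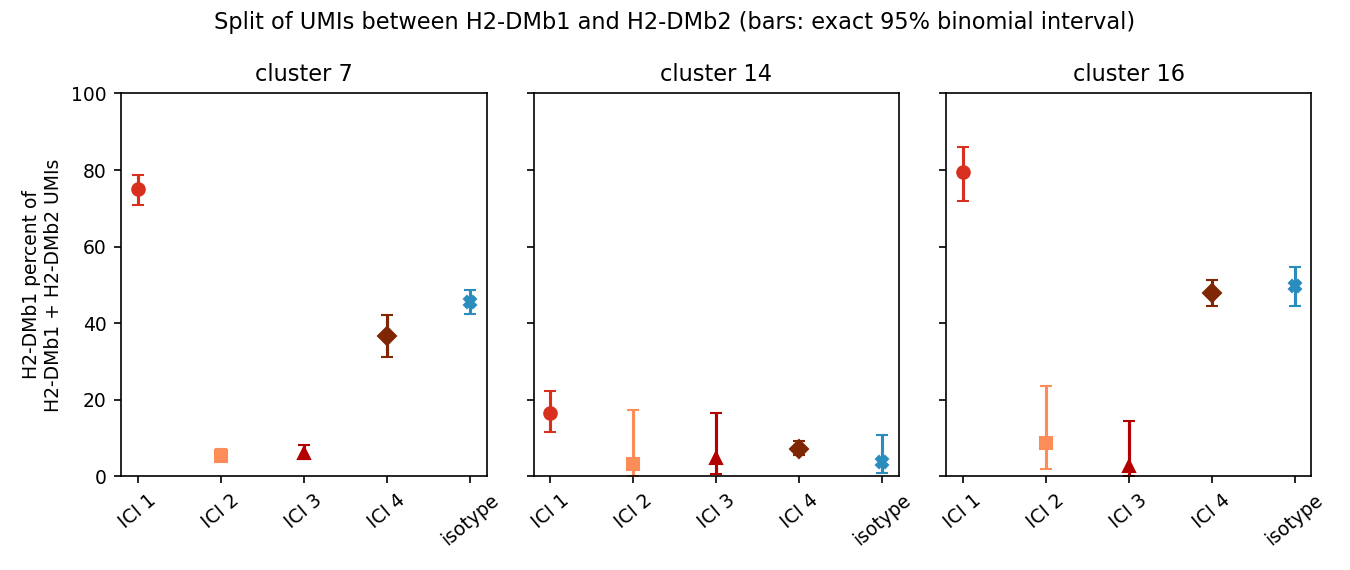
H2-DMb1 as a percent of H2-DMb1 plus H2-DMb2 UMIs in clusters 7, 14 and 16, by library with ICI 1 to 4 on the left and isotype on the right; bars are exact 95% binomial intervals for counting error only. ICI 1 is high and ICI 2 and 3 are low in clusters 7 and 16, and all libraries are at 16.5% or lower in cluster 14.

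Other genes of the pathway in cluster 7 spread on both sides of isotype. Of 25 listed genes, 22 were measured and 21 passed the filter there: 6 lay above isotype in every ICI library (20% of all genes did so), 3 lay below in every one (23.3% of all genes), none was called (lowest adjusted p 0.461), and the median log2 fold change was 0.54, against 0.02 over all genes. The 6 were the endosomal proteases Ctss, Ctsb and Lgmn, the thiol reductase Ifi30, and the transcription factors Irf8 and Spi1. Ifi30, which opens disulfide bonds of antigens, had 1029, 827, 1001 and 1214 CPM in ICI 1 to 4, against 344 CPM in isotype (log2 fold change 1.57, SE 0.38). ICI 4 was here the highest library. Ctss, which degrades the invariant chain, had 2266, 3364, 3144 and 931 CPM in ICI, against 752 CPM in isotype (1.69, SE 0.72). The promoter-binding factors Rfxap and Nfyb lay below isotype in every ICI library, with log2 fold changes of -1.13 and -1.49, as did the protease Ctsl (-0.60). Rfxap, Nfyb and Ctsl also did so outside clusters 7, 14 and 16 (-0.57, -0.72 and -2.27), so this was not particular to cluster 7. Cells with at least 2 Cd3 UMIs, 72.1% of cluster 7 in isotype, were kept in these values. Outside clusters 7, 14 and 16, 6 of the 20 genes that passed the filter lay above isotype in every ICI library, where 24.6% of all genes did so, and 7 lay below, where 25.9% did so.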

How the data were processed

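Single-cell RNA of CD45+ thyroid cells was counted in 4 ICI libraries and 1 isotype library. The deposited values are whole-number UMI counts, made by the authors with Cell Ranger and Seurat on mouse build mm10, per the submitters' processing notes; versions are not given in the sources used here. The authors' deposited cell table also gives UMIs, the mitochondrial percent and the cluster of each cell; that percent was not used. Count sums equalled the cell table's totals in all 10275 cells. The members and gene lists were chosen with earlier results of these data known. Named genes are all members, listed pathway genes, markers, Hbb-bs, the genes overlapping H2-DMa and H2-Oa (added after the values were seen) and the 10 genes most alike over clusters; some genes that this rule covers are not reported here.

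UMIs of each library were added up over the cells of a comparison (clusters needed at least 10 cells in a library) and fitted by edgeR 4.0.16 (quasi-likelihood, TMM scaling, filterByExpr with a minimum count of 10, Benjamini-Hochberg adjustment over all genes tested, threshold 0.05). The lone isotype library is assumed to vary like the ICI libraries. DESeq2 1.42.0 was an alternative, with missing adjusted p left out. Others were RLE scaling, no filter, leaving out 1 ICI library at a time, joining ICI 1 to 3 into 1 library, ICI 4 alone, the highest cell left out, shared barcodes reduced, at least 20 cells, and thinning to 1000 UMIs per cell, which dropped 303, 101, 159 and 33 cells of ICI 1 to 4 and 21 of isotype. Two-lineage cells were also removed: at least 2 Cd3 UMIs in clusters 7, 14 and 16, or at least 2 UMIs of 8 B or myeloid markers elsewhere. No doublet caller was run. The fits were also run on simulated data in which all libraries, isotype included, were drawn with the same spread. That run cannot check the assumption about the lone isotype library. Promoter sequences are from RefSeq (GRCm38.p6).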

Additional observations from a re-analysis of the deposited data

Results flagged for a closer look

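In sums over all cells, 1 ICI library stood far from the other 3 for H2-DMa and for H2-DMb1. H2-DMa had 121, 119, 110 and 49.3 CPM in ICI 1 to 4 and 119 in isotype, and the gap to ICI 4 was 0.845 of the whole ICI range. H2-DMb1 had 117, 10.9, 11.6 and 18.9 CPM in ICI 1 to 4 and 83.9 in isotype, and the gap to ICI 1 was 0.925 of the range. These exceed Dixon's 95% critical value for 4 samples. In all 33 groups of 4 libraries were examined, and chance passes that value in about 1 in 20.

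The I-A and I-E chains and Cd74 went opposite ways in 2 sets of cells. On the fitted scale every ICI library lay above isotype in macrophage-like cluster 7 and below it outside clusters 7, 14 and 16. For Cd74 this rests on a near tie in cluster 7, where ICI 4 had 20689 CPM and isotype 20721. The log2 fold changes differed by 2.75 for H2-Aa, 2.81 for H2-Ab1, 2.73 for H2-Eb1 and 2.62 for Cd74. With two-lineage cells removed, the log2 fold changes in cluster 7 and outside were 0.30 and -0.23 for H2-Aa, 0.27 and -0.55 for H2-Ab1, 0.54 and -0.15 for H2-Eb1, and 0.62 and -0.01 for Cd74, much closer together. The difference between the sets was not tested. The part of the Cd3 transcripts in cluster 7 and of the B and myeloid markers elsewhere in this contrast was not tested beyond the removal of two-lineage cells.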

How the results depend on the processing

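The share of class II UMIs in clusters 7, 14 and 16 was 96.1% with each cell thinned and 96.0% with shared barcodes reduced to 1 copy. The share held by the top 1% of cells was 26.4% thinned and 38.4% with shared barcodes reduced. The cause of the changes below was not tested. Over all cells, the members' median log2 fold change was -1.49 with ICI 4 alone and 0.93 with two-lineage cells removed. With ICI 4 alone it was 0.19 in cluster 7 and 0.30 in cluster 14. Outside clusters 7, 14 and 16 it was -0.65 thinned and -0.23 with two-lineage cells removed. Members called in cluster 7 numbered 1 by DESeq2 and 0 to 3 with each ICI library left out, 3 being without ICI 4. Outside the 3 clusters they numbered 0 to 1, the 1 being without ICI 4. In the other clusters taken singly, where 1 was called, they numbered 5 with no filter, 2 by DESeq2, 3 with ICI 1 to 3 summed, 4 with at least 20 cells, and 0 with the highest cell left out, thinned, or with two-lineage cells removed. With each ICI library left out they numbered 1 to 13, with 4 without ICI 3 and 13 without ICI 4. H2-DMb1 in cluster 7 turned to 0.50 thinned and 0.0094 with two-lineage cells removed, and ran from -1.33 to 0.20 with each ICI library left out, positive without ICI 2 or ICI 3. The difference in class II-high cells ran from -2.38 to 1.59 points, positive without ICI 4. Summing H2-DMb1 with H2-DMb2 was chosen after seeing the data. In clusters 14 and 16, leaving out ICI 1 or ICI 4 leaves 1 library against 1, a value with no test. No paired analysis was possible because the isotype group is 1 library. Depth limits the sparse members most: Ciita, H2-Oa and H2-Ob rest on 33, 18 and 11 isotype UMIs in cluster 7.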

Other observations

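In ICI 3, cluster 2 had Cd74 at 4129 CPM over 21 cells, and 1 cell held 84.4% of these UMIs. With ICI 4 left out, the 13 member calls in single clusters were 4 in cluster 2, all higher in ICI, and 4 in cluster 6, 3 in cluster 8 and 2 in cluster 10, all lower in ICI. In the same fits edgeR called 79 of 4187 genes in cluster 2, 1417 of 8195 in cluster 6, 325 of 6470 in cluster 8 and 483 of 5435 in cluster 10. Without ICI 4, treatment cannot be told apart from the split of libraries by Hbb-bs transcripts. In the fits with all 4 ICI libraries the members' median was 2.89, -2.996, -2.504 and -2.003 in clusters 2, 6, 8 and 10. It was 1.53, -2.53, 0.201 and -0.422 with the highest cell left out, where fewer members passed the filter in clusters 6, 8 and 10. It was 0.559, -0.611, -2.499 and -0.188 with two-lineage cells removed, where fewer passed in clusters 6 and 10.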
